A study of Sus scrofa with 10 samples.

Results

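Heart and skeletal muscle are both striated muscles, and the genes they share in pigs are described here as 1 set of 100 genes out of 25880 in the deposited table. The set was chosen from measured values. A gene belonged to it when it stood at 5 FPKM or more in heart, in psoas major and in longissimus dorsi, and when the lowest of these 3 values was at least 5-fold above the highest of 6 other tissues, counted on FPKM + 1. FPKM is the number of fragments per kilobase of transcript and library size in fragments, so levels of different genes can be set side by side per length. The gap between the striated and the other tissues therefore chose the members and is given as a description only. Of the 4060 genes at the level of 5 in the 3 striated libraries, the set holds 2.46%. No further gene had the 5-fold gap and missed the level (0 genes).

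The series profiled RNA of pigs of the Northeast Min breed at 60 days of age with 10 libraries, 1 each from heart, psoas major, longissimus dorsi, liver, spleen, lung, kidney, subcutaneous adipose tissue and ovary, and 1 from a pool of tissues. Psoas major is the loin muscle under the spine, and longissimus dorsi is the long muscle of the back. No treatment or genetic change is named for any group, and the labels do not say whether the tissues came from the same animal. Since a tissue is represented by a single library, the error of its values could not be estimated. Differences between tissues could not be checked against replicates or tested. Because whole tissues were used, fewer cells of a type and less RNA per cell cannot be told apart.

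In a striated muscle cell, thin filaments of actin slide along thick filaments of myosin within sarcomeres, which are bounded by Z-discs and held at their centre by M-bands. The giant protein titin spans from Z-disc to M-band. Contraction starts when calcium leaves the sarcoplasmic reticulum and binds troponin on the thin filament, and it is paid for by ATP, which creatine kinase, glycolysis and mitochondria restore. Heart muscle and slow skeletal fibres use many of the same protein isoforms, while fast skeletal fibres have isoforms of their own.

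The labels of the 3 striated libraries were checked against markers. The skeletal actin gene ACTA1 was at 3653 in heart, 10454 in psoas and 20549 in longissimus, against 0 to 16.4 in the other tissues. Desmin (DES), which forms the filaments that tie neighbouring sarcomeres together, was at 935 in heart, 1487 in psoas and 1164 in longissimus. MYOM1, which crosslinks the M-band, was at 202 in heart, 170.1 in psoas and 149 in longissimus. Troponin C of slow and cardiac muscle, TNNC1, was at 9656 in heart, 2023 in psoas and 1661 in longissimus. All 4 are members, so the rule had chosen them for this pattern. The cardiac and fast fibre lists are mostly not members. Cardiac isoforms separated heart from the muscles: the cardiac troponin T gene TNNT2 was at 9493 in heart, 3.07 in psoas and 3.96 in longissimus, and 8 of the 10 matched genes of the cardiac list were under 5 in both muscles and at 5 or more in heart. Fast fibre genes did the reverse, with 10 of 11 under 5 in heart alone. All 11 matched genes of the slow fibre list reached 5 in the 3 striated libraries, and 6 of them were members. Lists of other cell types gave no member for endothelium, fibroblasts, adipocytes, leukocytes, red cells or nerve, and the smooth muscle list gave only DES. The rule keeps out genes that are high in another tissue, so these counts describe the set and check nothing. Summed FPKM of the libraries ran from 292495 to 369254. The spacing of values in short genes puts the depth between 11.5 and 31.5 M fragments, uncertain by a factor of 2.

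The set took 18.6% of the summed FPKM of heart, 23.7% of psoas and 33.5% of longissimus, against 0.265% to 0.491% in the 6 other tissues. Models that share a locus are each counted in these sums. The median member stood at 66.3 FPKM in heart, 119 in psoas and 99.3 in longissimus, and at 0.104 (liver) to 0.60 (ovary) elsewhere. The lowest striated value of a member ran from 5.01 to 6586 FPKM with a median of 49.4. The gap to the highest other tissue, as a fold of FPKM + 1, ran from 5.0 to 805 with a median of 14.4. In 40 members every other tissue was under 1 FPKM, and in 76 every other tissue was under 5.

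**Figure D1:**
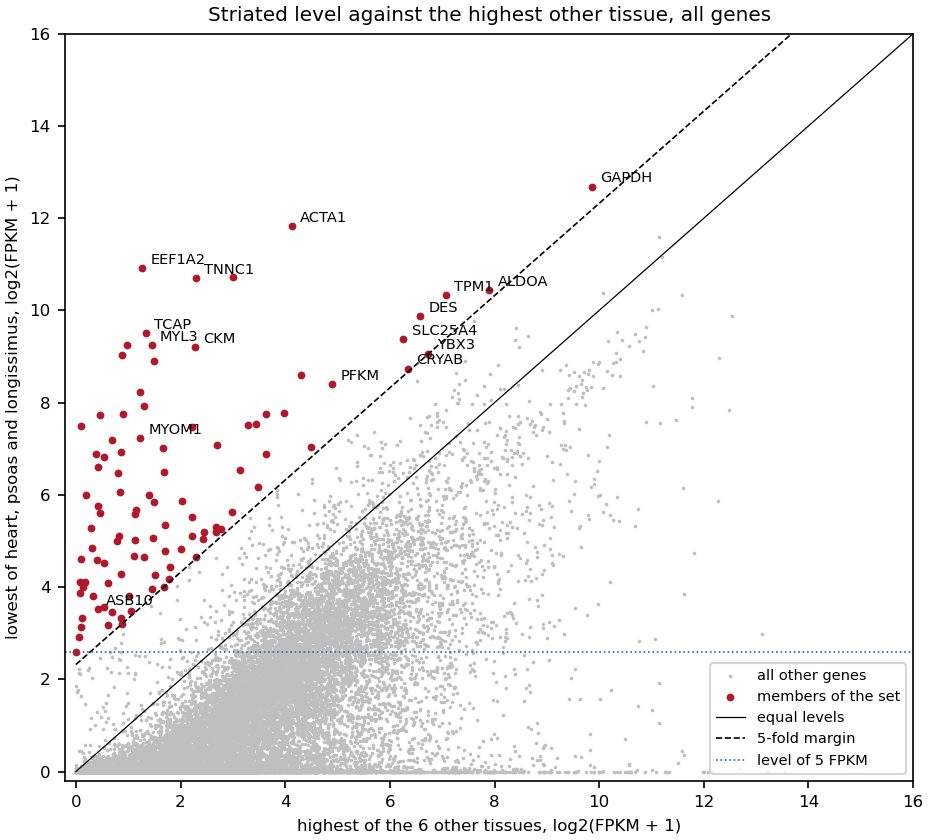
Each point is 1 of 25880 genes. The x axis gives the highest of the 6 other tissues and the y axis the lowest of heart, psoas and longissimus, both as log2(FPKM + 1). The 100 members (red) lie above the dashed line of the 5-fold gap and the dotted line of 5 FPKM; EEF1A2, TNNC1 and ACTA1 stand far to the upper left, while GAPDH and ALDOA lie at high levels close to the line.

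By role, 17 members supply energy, 14 belong to the Z-disc and desmin, and 11 to the M-band, titin and the ring finger proteins that dock there. A further 11 belong to the calcium store and its junction with the surface membrane, and 9 are chaperones and adaptors of ubiquitin ligases. Grouped with the membrane were 7, not all of them proteins within it. The thick filament has 6, the thin filament 6, and translation and RNA handling 6. The last 13 have other roles. The energy genes alone took 3.85% of heart, 12.5% of psoas and 21.2% of longissimus. The thick filament members took 6.03% of heart, 0.888% of psoas and 0.499% of longissimus. These sums count a short model inside CKM, at 9262 FPKM in longissimus, beside CKM, and the short models inside MYH6 beside MYH6. GAPDH alone was 34563 of the 78418 FPKM of the energy genes in longissimus. The heat map of levels by role shows that the gap to the other tissues varied within each role. It was under 10-fold for 9 of 17 energy members, 4 of 14 Z-disc members, 3 of 6 thin filament members and 1 of 6 thick filament members.

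**Figure D2:**
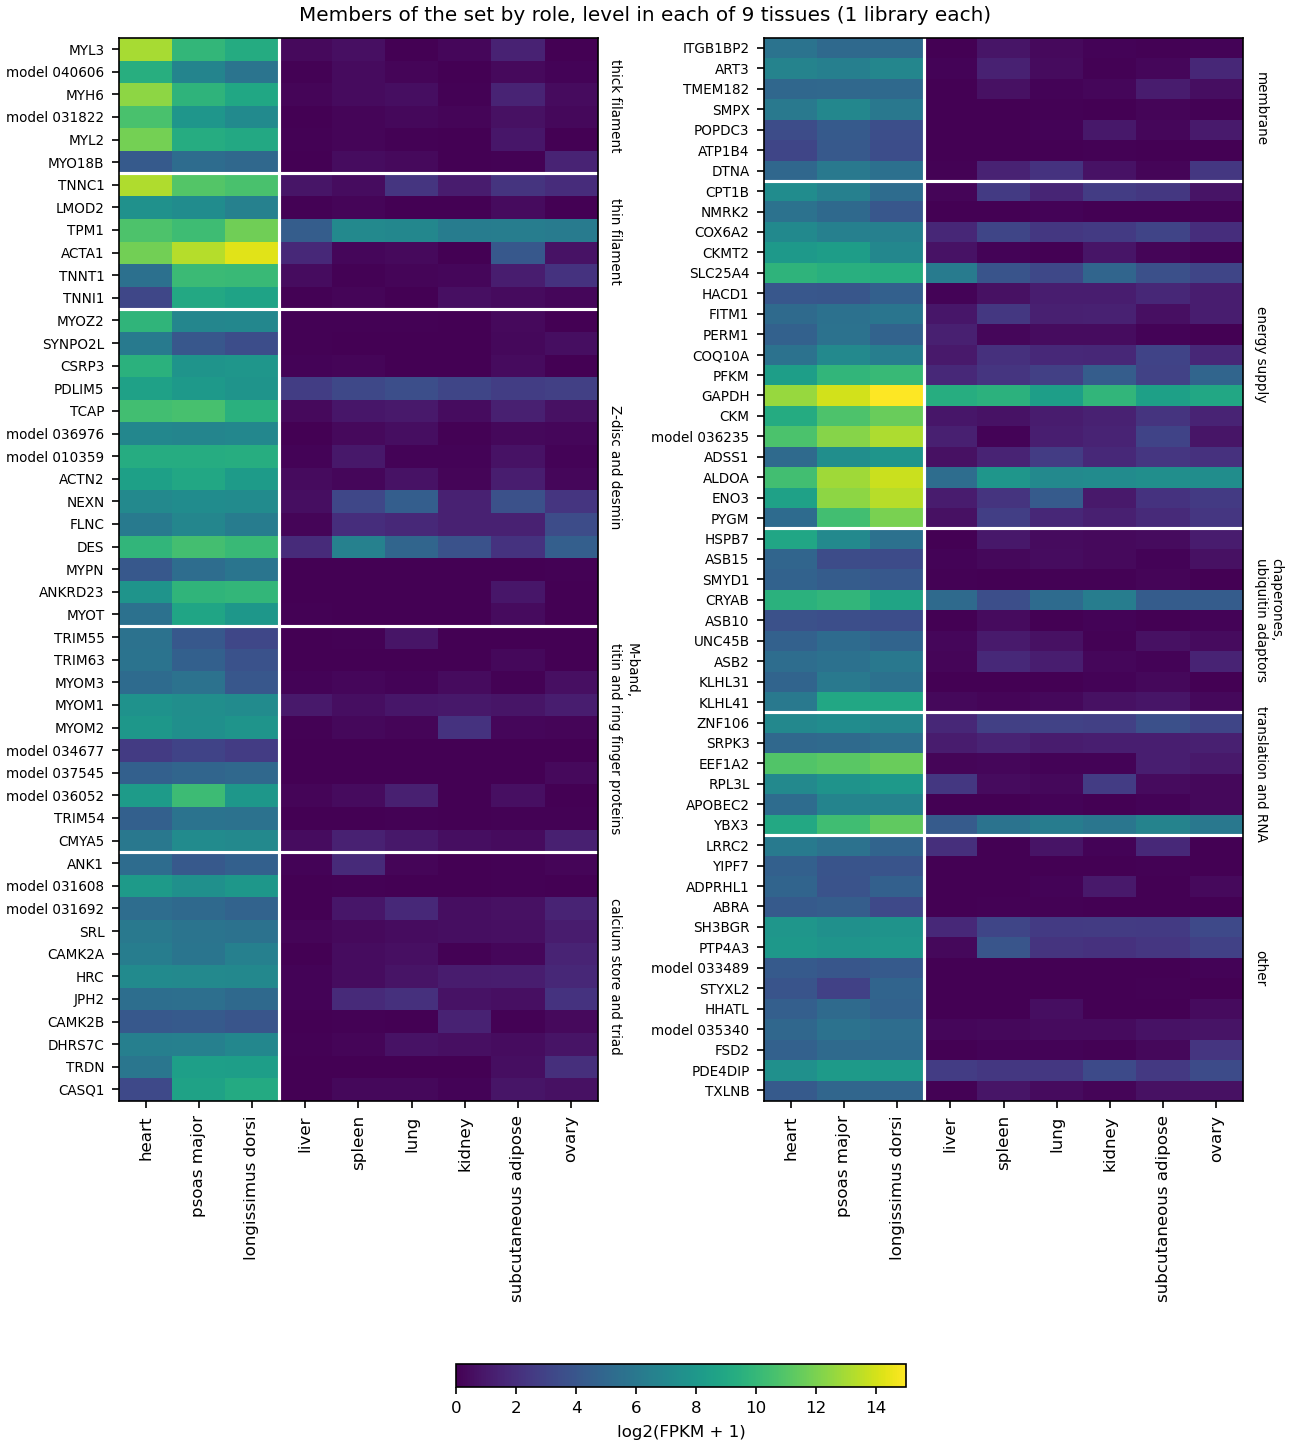
Levels of 99 of the 100 members, as log2(FPKM + 1) on a colour scale, in 9 tissues with 1 library each. Rows are grouped by role and sorted within a role from the highest to the lowest heart minus muscle difference; "model" and 6 digits stand for a gene model without a name. Most rows are near 0 right of the white line, while GAPDH, ALDOA, TPM1, DES and CRYAB stay visible there.

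In the thick filament, the light chains and heavy chains of heart and slow fibres led. The essential light chain MYL3 was at 8244 in heart, 961 in psoas and 606 in longissimus FPKM, and the 6 other tissues ran from 0 to 1.73 with a median of 0.267. The regulatory light chain MYL2 was at 3664 in heart, 619.9 in psoas and 525 in longissimus, and the 6 other tissues ran from 0 to 0.843 with a median of 0.064. The gene model named MYH6, the alpha heavy chain of heart, was at 5613 in heart, 858 in psoas and 479.9 in longissimus, and the 6 other tissues ran from 0.0554 to 1.8 with a median of 0.355. All 3 were therefore several times higher in heart than in either muscle, and far above every other tissue in both. The MYH6 model (chromosome 7, 75650847 to 75704483 on Sscrofa11.1) also spans MYH7, the heavy chain of slow fibres, so the share of each gene in its value cannot be told apart. A pair of short unnamed models inside it, both listed on the opposite strand, moved with it. Strandedness of the libraries is not given, so sense and antisense reads cannot be told apart. The model ENSSSCG00000031822 within MYH7 was at 1628 in heart, 239 in psoas and 146 in longissimus, which is 0.290, 0.278 and 0.304 of the MYH6 value in that order of tissues. The model ENSSSCG00000040606 was at 680.3 in heart, 108 in psoas and 53.2 in longissimus. MYO18B, an unconventional myosin needed to build sarcomeres, went the other way at 18.2 in heart, 38.2 in psoas and 33 in longissimus. Fast light and heavy chains were near 0 in heart: MYL11 was at 0.227 in heart, 10547 in psoas and 15165 in longissimus and MYH4 at 0.00167 in heart, 473 in psoas and 1966 in longissimus, and 9 of the 17 matched thick filament genes were under 5 in heart alone.

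Of the 19 thin filament genes, 10 reached 5 in the 3 striated libraries and 6 were members. TNNC1, the calcium sensor, had the second widest gap of all members, with a fold of 339 on FPKM + 1 over lung. ACTA1 was a member at a fold of 209.5 over adipose tissue. The slow troponins T and I passed in heart at far lower levels than in muscle. TNNT1 was at 44.9 in heart, 1176 in psoas and 1126 in longissimus FPKM, and the 6 other tissues ran from 0.0839 to 3.66 with a median of 0.313, while TNNI1 was at 8.05 in heart, 528 in psoas and 414 in longissimus, and the 6 other tissues ran from 0.0413 to 0.526 with a median of 0.178. Heart was thus the lowest striated tissue for both. TPM1, an alpha tropomyosin that lies along actin, was at 1761 in heart, 1289 in psoas and 3405 in longissimus and stood at 20.4 to 133 in the other tissues, with a median of 78.3, so the gap was narrow although the level was high. LMOD2, a leiomodin at the pointed end of the thin filament, was at 191 in heart, 154 in psoas and 96.2 in longissimus and at most at 0.335 elsewhere. The cardiac actin ACTC1 missed the gap because of longissimus, at 3517 in heart, 217 in psoas and 24.1 in longissimus against 8.5 in kidney. TPM2 missed it because of spleen, at 195. TPM3 was at 35.4 in heart, 805 in psoas and 606 in longissimus, and its heart level was below each of the 6 other tissues, which stood at 50.5 to 296.

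The Z-disc anchors the thin filaments, and 11 of the 26 matched genes of its list were members. TCAP, which caps titin at the Z-disc, was at 1431 in heart, 1581 in psoas and 732 in longissimus FPKM, and the 6 other tissues ran from 0.291 to 1.53 with a median of 0.732. ACTN2, the alpha-actinin that crosslinks actin there, was at 362 in heart, 500.0 in psoas and 299 in longissimus, and the 6 other tissues ran from 0.134 to 1.34 with a median of 0.261. Both were low outside the striated tissues. TCAP was lowest in longissimus, whereas ACTN2 stayed within 2-fold across the 3. LDB3, a PDZ and LIM protein of the Z-disc, is represented by a pair of unnamed models. The one at chromosome 14, 87659261 to 87690261 (ENSSSCG00000010359) was the most even member, at 612 in heart, 634 in psoas and 654 in longissimus, and the one at 87703268 to 87719629 (ENSSSCG00000036976) was at 119.9 in heart, 113 in psoas and 122 in longissimus. The other tissues were at most at 0.965 and 0.454.

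Several Z-disc members differed between heart and muscle. The calcineurin-binding MYOZ2 was at 910.0 in heart, 118 in psoas and 122 in longissimus, and the 6 other tissues ran from 0 to 0.308 with a median of 0.0538. The muscle LIM protein CSRP3 was at 757 in heart, 213 in psoas and 237 in longissimus, and the 6 other tissues ran from 0 to 0.37 with a median of 0.0638. SYNPO2L, which binds actin, was at 69.2 in heart, 15.5 in psoas and 10.8 in longissimus, and the 6 other tissues ran from 0 to 0.445 with a median of 0.0438. All 3 were higher in heart than in each muscle. MYOT, encoding myotilin, was at 47.5 in heart, 457 in psoas and 244 in longissimus, and the 6 other tissues ran from 0 to 0.37 with a median of 0.0291. Its relative MYPN (myopalladin) was at 16.3 in heart, 40.8 in psoas and 56.9 in longissimus, and the 6 other tissues ran from 0 to 0.061 with a median of 0.0069. The titin-binding ankyrin repeat gene ANKRD23 was at 216 in heart, 886 in psoas and 959.7 in longissimus, and was listed at 0 outside the striated tissues except for 0.871 in adipose tissue. These 3 were lower in heart than in each muscle. FLNC, the muscle filamin, was at 71.5 in heart, 119 in psoas and 78.3 in longissimus with 10.2 in ovary. The actin-binding NEXN was at 131 in heart, 158 in psoas and 151 in longissimus with 21.6 in lung, and PDLIM5, a PDZ and LIM protein, was at 390.2 in heart, 263 in psoas and 216 in longissimus with 11.4 in lung. All 3 had a clear level outside striated muscle. DES was at 94.5 in spleen, where the smooth muscle list summed to 1438 FPKM, against 1110 in heart, 1777 in psoas and 1353 in longissimus with DES included. The part of smooth muscle in the DES values was not tested.

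The M-band list held the largest share of members among the 25 lists: of 11 matched genes, 10 reached 5 in the 3 libraries and 8 were members. Of all 4060 genes at the level, 2.46% were members. The rule and the choice of list genes fixed this rank, so nothing is read from it. The myomesin MYOM2, like MYOM1 a crosslinker of thick filaments, was at 245 in heart, 176 in psoas and 213 in longissimus FPKM, and the 6 other tissues ran from 0.0646 to 3.66 with a median of 0.189. Another myomesin, MYOM3, was at 36.4 in heart, 49 in psoas and 16 in longissimus, and the 6 other tissues ran from 0.0785 to 0.523 with a median of 0.162. MYOM1 and MYOM2 were of similar level in all 3 tissues, and MYOM3 was lowest in longissimus. CMYA5 (myospryn) was at 62.7 in heart, 148 in psoas and 134 in longissimus, and the 6 other tissues ran from 0.363 to 1.62 with a median of 0.697. Heart was its lowest striated tissue. A trio of muscle ring finger ligases, which mark proteins for breakdown, were members. TRIM63 (MuRF1) was at 51.6 in heart, 23.6 in psoas and 13 in longissimus. TRIM55 (MuRF2) was at 49.4 in heart, 16.2 in psoas and 8.26 in longissimus. TRIM54 (MuRF3) was at 23.4 in heart, 50.9 in psoas and 48.5 in longissimus. No other tissue was above 0.837 for any of them. TRIM63 and TRIM55 were higher in heart than in each muscle, and TRIM54 was lower.

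Titin itself has no named model in the table, but 3 members lie inside it on chromosome 15. The model at 84227979 to 84230496 (ENSSSCG00000036052) was at 304 in heart, 1225 in psoas and 242 in longissimus FPKM. The one at 84493144 to 84501298 (ENSSSCG00000037545) was at 23.1 in heart, 28.9 in psoas and 32.2 in longissimus, and the one at 84406876 to 84410933 (ENSSSCG00000034677) at 5.01 in heart, 7.15 in psoas and 5.34 in longissimus. The first was 2.33 higher in psoas than in longissimus on the log2 scale, the largest such difference among members, while the other models differed by -0.15 and 0.36. The third was listed at 0 in all 6 other tissues and was the only such member. LRRC39, an M-band protein, missed the gap at 52.2 in heart, 45.7 in psoas and 38.5 in longissimus because ovary stood at 9.62.

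Calcium handling was split, with 7 of 29 matched genes in the set and 9 under 5 in heart alone. TRDN, encoding triadin of the release complex, was at 57.1 in heart, 346 in psoas and 333 in longissimus FPKM, and the 6 other tissues ran from 0 to 3.06 with a median of 0. The luminal calcium buffer CASQ1 was at 9.07 in heart, 395 in psoas and 564 in longissimus, and the 6 other tissues ran from 0.00721 to 0.821 with a median of 0.245. Both were lower in heart than in each muscle. HRC, a histidine-rich calcium-binding protein of the store, was at 143 in heart, 132 in psoas and 128 in longissimus, and the 6 other tissues ran from 0.0876 to 2.19 with a median of 0.958. Sarcalumenin (SRL), another calcium-binding protein there, was at 67.1 in heart, 54.2 in psoas and 50.1 in longissimus, and the 6 other tissues ran from 0.136 to 1.23 with a median of 0.438. JPH2, which holds the store to the surface membrane, was at 41.6 in heart, 44.3 in psoas and 33.3 in longissimus, and the 6 other tissues ran from 0.108 to 3.64 with a median of 1.57. These stood within a 2-fold range across the striated tissues. CAMK2A, a subunit of the calcium-dependent kinase CaMKII, was at 82.5 in heart, 56.9 in psoas and 89.9 in longissimus, and the 6 other tissues ran from 0.0274 to 1.83 with a median of 0.29. The subunit CAMK2B was at 16.2 in heart, 18.2 in psoas and 14.5 in longissimus, and the 6 other tissues ran from 0 to 1.76 with a median of 0.0656. DHRS7C, a dehydrogenase of the store membrane, was at 88.4 in heart, 91.2 in psoas and 122 in longissimus.

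The gene ANK1 encodes, among other forms, a small muscle ankyrin that ties the store to the sarcomere, and it held a pair of members. The model named ANK1 was at 38.4 in heart, 17.1 in psoas and 23 in longissimus and the short model inside it (ENSSSCG00000031608, chromosome 17, 10752284 to 10762488) at 293 in heart, 181 in psoas and 249 in longissimus. The short model was 7.62 times the longer one in heart, 10.6 times in psoas and 10.8 times in longissimus. ATP2A2, the calcium pump of slow and heart muscle, missed the gap at 518 in heart, 329 in psoas and 145 in longissimus, with 36 in lung. ATP2A1, CACNA1S and STAC3 missed the level in heart, at 0.467, 0 and 0.121 against 1329, 106 and 277 in psoas. RYR2, the cardiac release channel, missed it in the muscles, at 0.0637 in psoas and 0.0402 in longissimus against 85.1 in heart.

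Membrane members were low to moderate in level. The dystrobrevin gene DTNA, part of the dystrophin complex, was at 31.8 in heart, 65.4 in psoas and 44.9 in longissimus FPKM, and the 6 other tissues ran from 0.0544 to 4.39 with a median of 1.18. Melusin (ITGB1BP2), which binds integrin, was at 51.5 in heart, 33.7 in psoas and 33.5 in longissimus, and the 6 other tissues ran from 0.0128 to 0.782 with a median of 0.117. SMPX was at 65 in heart, 121 in psoas and 63.2 in longissimus, and the 6 other tissues ran from 0 to 0.151 with a median of 0.0423. ATP1B4, which belongs to the family of sodium pump beta subunits, was at 7.79 in heart, 17 in psoas and 10.4 in longissimus, and the 6 other tissues ran from 0 to 0.0711 with a median of 0.00372. The popeye domain gene POPDC3 was at 10.1 in heart, 18 in psoas and 11.4 in longissimus, and the 6 other tissues ran from 0 to 1.08 with a median of 0.145. ART3 stood between 89.1 and 118 in the striated tissues and TMEM182 between 31.4 and 34.2. None of the 7 was on the heart or muscle side by the 2-fold rule. Of 22 matched genes of the membrane and costamere list, which holds the dystrophin complex among others, 15 reached 5 in the 3 libraries and 4 were members. Their median gap was -0.22 on the log2 scale, so for most of them another tissue stood above the lowest striated one. SGCA missed it with 8.94 in adipose tissue, and DMD with 12 in the same tissue. CAV3, the muscle caveolin, was at 0.17 in heart, 42 in psoas and 0.275 in longissimus and so was high in psoas alone. Of the 20 matched channels, pumps and receptors of excitability, 3 reached 5 in the 3 libraries and 1, ATP1B4, was a member.

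Energy genes included the highest levels of the set, and several had narrow gaps. GAPDH, the glycolytic dehydrogenase, was at 6586 in heart, 15924 in psoas and 34563 in longissimus FPKM, and the 6 other tissues ran from 339 to 926 with a median of 578. ALDOA, the muscle aldolase, was at 1397 in heart, 7509 in psoas and 14307 in longissimus, and the 6 other tissues ran from 40.3 to 239 with a median of 156. Both passed the gap by little, with folds of 7.11 and 5.84. ENO3, the muscle enolase, was at 389 in heart, 5645 in psoas and 10825 in longissimus, and the 6 other tissues ran from 1.07 to 18.7 with a median of 3.73. PFKM, the muscle phosphofructokinase, was at 339 in heart, 945 in psoas and 1117 in longissimus, and the 6 other tissues ran from 2.32 to 28.9 with a median of 6.41. Glycogen phosphorylase of muscle, PYGM, was at 37.6 in heart, 1432 in psoas and 3994 in longissimus, and the 6 other tissues ran from 0.565 to 5.85 with a median of 2.34. Heart was the lowest striated tissue for all 5, by far for PYGM and ENO3.

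The creatine kinases carry high-energy phosphate between mitochondria and filaments. CKM of the cytosol was at 588 in heart, 1771 in psoas and 3004 in longissimus, and the 6 other tissues ran from 0.639 to 3.85 with a median of 1.4. Its mitochondrial counterpart CKMT2 was at 261 in heart, 322 in psoas and 120.3 in longissimus, and the 6 other tissues ran from 0.0222 to 0.827 with a median of 0.129. CKM was lowest in heart and highest in longissimus, whereas CKMT2 was lowest in longissimus. A short model on the opposite strand inside CKM (ENSSSCG00000036235, chromosome 6, 51704370 to 51705161) was at 1696 in heart, 4863 in psoas and 9262 in longissimus, which is 2.89, 2.75 and 3.08 times CKM in that order. Whether the libraries kept strand is not given in the sources used here, so sense and antisense reads cannot be told apart. ADSS1, a muscle enzyme of the purine nucleotide cycle, was at 35.6 in heart, 172 in psoas and 227 in longissimus.

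Among mitochondrial members, the ATP/ADP carrier SLC25A4 was at 874 in heart, 691 in psoas and 661 in longissimus, and the 6 other tissues ran from 7.82 to 75.5 with a median of 12.8. COX6A2, the muscle form of a cytochrome oxidase subunit, was at 139.9 in heart, 92.1 in psoas and 92.2 in longissimus, and the 6 other tissues ran from 2.22 to 7.77 with a median of 4.65. Both were higher in heart than in the muscles by less than 2-fold. COQ10A, which binds coenzyme Q, was at 48.8 in heart, 130.3 in psoas and 85.1 in longissimus, and the 6 other tissues ran from 1.06 to 6.95 with a median of 2.23. PERM1, a regulator of mitochondrial genes, was at 24.1 in heart, 48.5 in psoas and 25.9 in longissimus, and the 6 other tissues ran from 0.0298 to 1.48 with a median of 0.307. Both were highest in psoas. CPT1B, which lets long-chain fatty acids into mitochondria, was at 155 in heart, 90.9 in psoas and 38.2 in longissimus, and the 6 other tissues ran from 0.174 to 5.4 with a median of 3.14. It was the only member among 25 genes of fatty acid use, although 24 of them reached 5 in the 3 libraries. The other 23 missed the gap, for example FABP3 at 288 in heart, 236 in psoas and 64.6 in longissimus with 258 in adipose tissue. NMRK2, a nicotinamide riboside kinase, was at 48.5 in heart, 34 in psoas and 15.9 in longissimus, and the 6 other tissues ran from 0.000637 to 0.108 with a median of 0.0119. The lipid droplet gene FITM1 was at 35.6 in heart, 47.1 in psoas and 56.6 in longissimus. HACD1, an enzyme of fatty acid elongation, was at 16.2 in heart, 15 in psoas and 23.7 in longissimus.

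Chaperones fold and protect sarcomere proteins, and adaptors mark proteins for breakdown. The small heat shock protein HSPB7 was at 476 in heart, 131 in psoas and 47.3 in longissimus FPKM, and the 6 other tissues ran from 0 to 1.18 with a median of 0.36. Its relative CRYAB, also known from the lens, was at 762 in heart, 938 in psoas and 426 in longissimus, and the 6 other tissues ran from 11.2 to 80.2 with a median of 27.6. HSPB7 was higher in heart than in each muscle, whereas CRYAB was highest in psoas. UNC45B, the myosin chaperone, was at 24.5 in heart, 37.1 in psoas and 27.2 in longissimus, and the 6 other tissues ran from 0.0434 to 1.16 with a median of 0.474. SMYD1, a methyltransferase that helps assemble myosin, was at 25.6 in heart, 19.3 in psoas and 16.3 in longissimus, and the 6 other tissues ran from 0.0237 to 0.134 with a median of 0.0581. The adaptor KLHL41 was at 65.5 in heart, 501 in psoas and 503 in longissimus, and the 6 other tissues ran from 0.163 to 0.787 with a median of 0.256. Its relative KLHL31 was at 27.7 in heart, 65.6 in psoas and 46.9 in longissimus, and the 6 other tissues ran from 0 to 0.241 with a median of 0.0355. Both were lower in heart than in each muscle, KLHL41 by more. Of the ankyrin repeat adaptors, ASB2 was at 39.5 in heart, 48.1 in psoas and 63 in longissimus, and the 6 other tissues ran from 0.0995 to 2.26 with a median of 0.765. ASB10 was at 12.1 in heart, 11 in psoas and 10.5 in longissimus, and the 6 other tissues ran from 0 to 0.334 with a median of 0.0472. ASB15 was at 28.4 in heart, 10.4 in psoas and 9.94 in longissimus, and the 6 other tissues ran from 0.0934 to 0.623 with a median of 0.295. ASB10 and ASB15 were higher in heart than in each muscle, ASB10 by little, and ASB2 was lower. SMYD1 was the only member among the 31 transcription factors and cofactors listed. Of those, 5 were under 5 in heart alone, including MYOD1 at 0 in heart, 6.98 in psoas and 13.3 in longissimus and MYOG at 0 in heart, 10.3 in psoas and 11.9 in longissimus, and 7 were under 5 in both muscles alone, including TBX20 at 19.3 in heart, 0 in psoas and 0 in longissimus. MEF2A, MEF2C, MEF2D and SRF reached 5 in the 3 libraries and missed the gap.

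The widest gap of any member was that of 1 translation gene, EEF1A2. The median fold of the 6 translation and RNA members was 16.5, against 131 for the thick filament. EEF1A2, an elongation factor of muscle and nerve, was at 1942 in heart, 2284 in psoas and 3058 in longissimus FPKM, and the 6 other tissues ran from 0.10 to 1.41 with a median of 0.183, a fold of 805 on FPKM + 1. RPL3L, a ribosomal protein of striated muscle, was at 134 in heart, 211 in psoas and 263 in longissimus, and the 6 other tissues ran from 0.244 to 5.45 with a median of 0.362. YBX3, a cold shock domain protein that binds RNA, was at 534 in heart, 1376 in psoas and 2546 in longissimus with 105.6 in adipose tissue and sat just inside the limit. SRPK3, a kinase of splicing factors, was at 32.6 in heart, 35.5 in psoas and 43.5 in longissimus, and the 6 other tissues ran from 1.17 to 1.78 with a median of 1.39. APOBEC2, a relative of the cytidine deaminases, was at 37.8 in heart, 108 in psoas and 102 in longissimus, and the 6 other tissues ran from 0 to 0.227 with a median of 0.0584. The zinc finger gene ZNF106 was at 126 in heart, 155 in psoas and 117 in longissimus, and the 6 other tissues ran from 2.2 to 11.5 with a median of 6.37. EEF1A2, RPL3L, SRPK3 and ZNF106 stood within a 2-fold range across the 3 striated tissues.

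Of the 13 members with other roles, 10 stayed within 2-fold across the 3 tissues, near the share of 71.3% among the 4060 genes. PTP4A3, a phosphatase, was at 254 in heart, 219 in psoas and 234 in longissimus FPKM. PDE4DIP (myomegalin) was at 184 in heart, 292 in psoas and 258 in longissimus. SH3BGR stood between 182 and 232 in the striated tissues. ABRA, an actin-binding protein, was at 18.2 in heart, 20.3 in psoas and 9.09 in longissimus. STYXL2, a phosphatase-like protein, was at 14 in heart, 6.56 in psoas and 27.1 in longissimus and differed most between the muscles among these 13. LRRC2 stood between 27.2 and 68.3, and ADPRHL1, YIPF7, TXLNB, HHATL and FSD2 between 13 and 37.6. The remaining ones are a model inside C14H10orf71 at 18.1 in heart, 15.1 in psoas and 18.2 in longissimus and a model on the unplaced scaffold AEMK02000282.1 at 31.2 in heart, 49.3 in psoas and 39.4 in longissimus.

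The plot of genes per list shows how each functional list divided. Of the thick filament list 17 genes were matched, 4 reached 5 in the 3 libraries and 3 were members. These counts were 28, 21 and 5 for glucose and glycogen use, 15, 13 and 5 for muscle isoforms of mitochondrial proteins, and 7, 4 and 3 for phosphagen, oxygen and adenylate genes. They were 26, 17 and 8 for ubiquitin adaptors and proteolysis, 12, 10 and 4 for small heat shock proteins and chaperones, and 7, 3 and 2 for splicing and translation isoforms. The cardiac list gave 1 member (MYH6) and the fast fibre list 1 (CASQ1). The median gap of matched genes on the log2 scale was 3.48 for the M-band, 1.51 for the Z-disc and -1.21 for fatty acid use, against -1.39 over the 4060 genes. The rule itself fixed these counts, so the share of 2.46% among all genes at the level is given for scale and nothing is read from it.

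**Figure D3:**
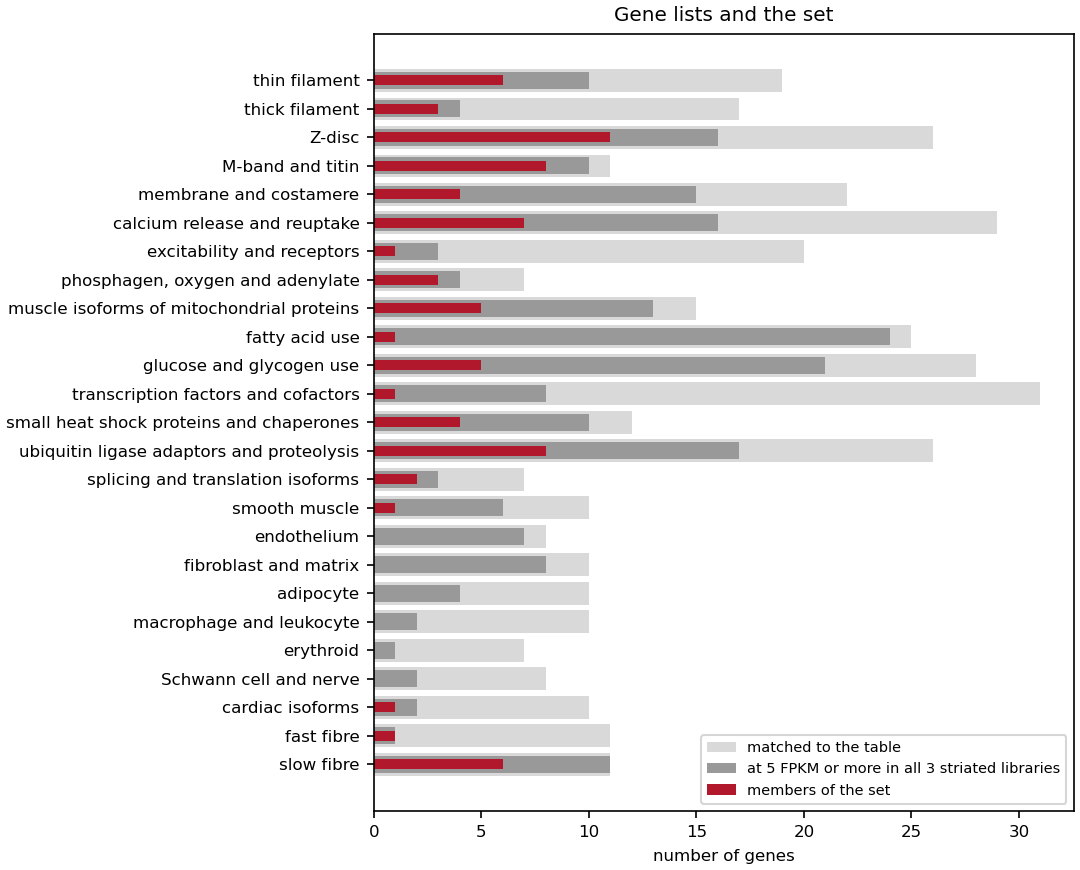
Bars give, for each of 25 gene lists, the genes matched to the table (light), those at 5 FPKM or more in heart, psoas and longissimus (grey) and the members of the set (red). The Z-disc list has 11 members and the M-band list 8, whereas 6 lists of other cell types have 0.

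Heart and muscle used the shared genes in unequal amounts. A difference was counted when heart was at least 2-fold above each muscle, or each muscle at least 2-fold above heart, on FPKM + 1. Heart was higher for 13 members, against 7.88% of the 4060 genes at the level, and each muscle was higher for 22 members, against 3.03%. The other 65 met neither condition. The median member difference, heart minus the mean of the muscles on the log2 scale, was -0.15, against 0.33 over the 4060 genes. Measured from that general median, 12 members were on the heart side and 25 on the muscle side. Within 2-fold across the 3 tissues were 48 members (48.0%), against 71.3% of the 4060 genes.

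The largest differences towards heart, on the log2 scale, were those of MYL3 (3.43), the models ENSSSCG00000040606 (3.15) and ENSSSCG00000031822 (3.12), MYH6 (3.13) and MYOZ2 (2.91). The largest towards muscle were those of PYGM (-5.95), TNNI1 (-5.69), CASQ1 (-5.55), TNNT1 (-4.65) and ENO3 (-4.33). Slow fibre genes therefore stood on both sides: MYL2, MYL3, TNNC1 and MYOZ2 were higher in heart, and TNNI1 and TNNT1 higher in muscle. By role, 5 of the 6 thick filament members were on the heart side, against 7.88% of the 4060 genes. These are 3 of 4 loci, since MYH6 and both models inside it share a locus. On the muscle side were 8 of the 17 energy members, against 3.03% of the 4060 genes. The 17 lie at 16 loci, since CKM and the short model inside it, both on the muscle side, share a locus. None of the thick filament was on the muscle side and none of the energy genes on the heart side. Of the 11 calcium store members, 8 were within 2-fold across the 3 tissues, about the share among the 4060 genes.

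Psoas and longissimus resembled each other more. Across the 100 members, Spearman's rank correlation of the levels was 0.968 between the muscles, 0.777 between heart and psoas and 0.733 between heart and longissimus. Over the 4060 genes it was 0.914, 0.794 and 0.759. These describe genes within single libraries, and genes are not replicates. By the 2-fold rule 10 members were higher in psoas, against 3.89% of the 4060 genes, and 4 were higher in longissimus, against 1.01%.

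On the psoas side, after the titin model, came MYOM3 (1.56 on the log2 scale), HSPB7 (1.45), CKMT2 (1.41) and CPT1B (1.23). CRYAB, TCAP, ABRA, NMRK2 and the model ENSSSCG00000040606 followed at 1.14, 1.11, 1.08, 1.04 and 1.01. On the longissimus side stood STYXL2 (-1.89), PYGM (-1.48), TPM1 (-1.40) and GAPDH (-1.12), with ACTA1 just short of 2-fold (-0.97). Other energy members were less than 2-fold apart, some only just. Among glycolytic genes ENO3 differed by -0.94, ALDOA by -0.93 and PFKM by -0.24. CKM differed by -0.76, PERM1 by 0.88, and the mitochondrial SLC25A4 and COX6A2 by 0.06 and -0.0020. Of the 13 members on the heart side, 11 were higher in psoas than in longissimus, as were 8 of the 22 on the muscle side and 74.0% of the 4060 genes.

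**Figure D4:**
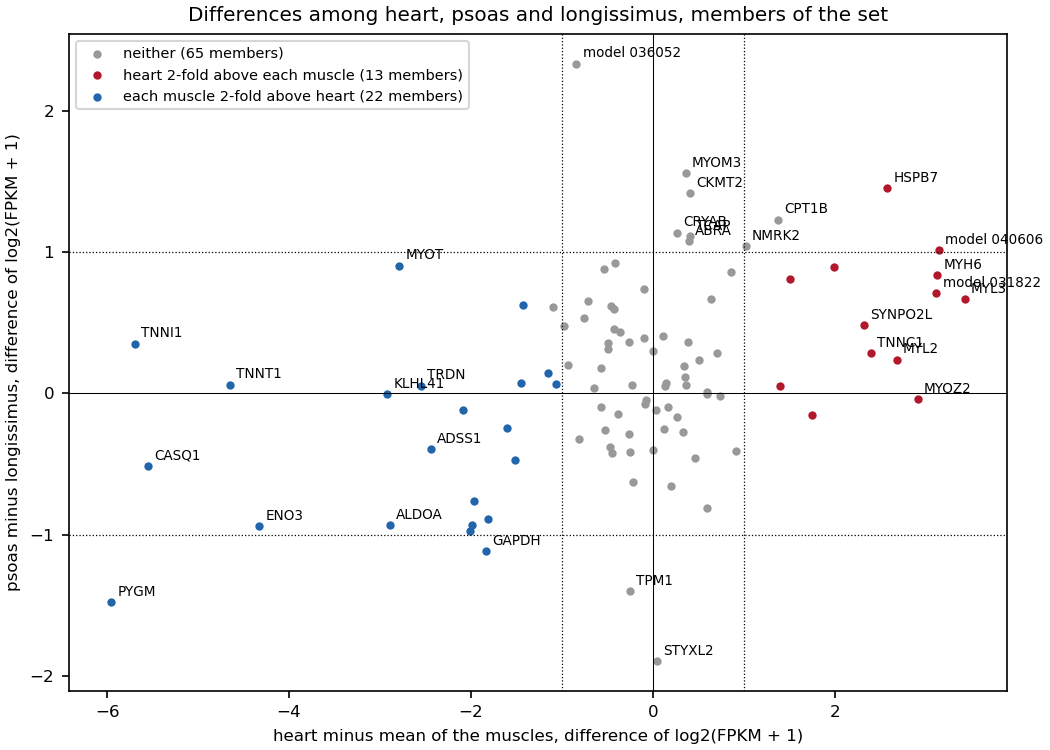
Each point is 1 of the 100 members. The x axis gives heart minus the mean of the muscles and the y axis psoas minus longissimus, both as differences of log2(FPKM + 1); dotted lines mark 2-fold. The spread is wide along x, from -5.95 for PYGM to 3.43 for MYL3, and narrow along y, from -1.89 for STYXL2 to 2.33 for a model inside titin.

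The most even members across the 3 tissues were both LDB3 models, TMEM182, HRC and ASB10, whose highest and lowest levels differed by 0.10, 0.12, 0.12, 0.16 and 0.19 on the log2 scale. Their roles differ, from the Z-disc to the calcium store. Their levels differ as well, from 10.5 FPKM in ASB10 to 654 in the first LDB3 model.

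Among the members, heart set the striated minimum more often than either muscle. It was the lowest of the 3 tissues for 48 members, longissimus for 35 and psoas for 17. The same split over the 4060 genes at the level is not given here. Over those genes the median heart minus muscle difference was 0.33 on the log2 scale, and 74.0% were higher in psoas than in longissimus. With heart left out of the rule the set grew to 197 genes, of which 97 were not members, among them the fast fibre genes MYL11, TNNI2 and TNNT3. With longissimus left out it grew to 110 and with psoas left out to 104. The 10 genes gained without longissimus included ACTC1, ATP2A2, ANKRD1 and CYCS. The 4 gained without psoas were MLIP, POPDC2, RBM24 and KLHL30.

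Several members are the muscle forms of enzymes or structural proteins that have a related gene of like function. Since the rule chose the members for high striated and low other levels, it favoured a lower share outside striated muscle. The shares are therefore a description only. Levels of the related gene were not used by the rule, so a lower share was not fixed for every pair. Of 14 such pairs, the member made up over 50% of the summed FPKM in heart and both muscles, and under 50% in each of the 6 other tissues, in 11. Among 14 further pairs whose striated gene is not a member, 1 met the same condition. CKM held 96.9% of CKM and CKB in heart, 99.8% in psoas and 99.9% in longissimus, but 1.81% to 18.2% elsewhere. ACTN2 held 94.5% to 97.7% of ACTN2 and ACTN1 in the striated tissues and at most 3.65% elsewhere. RPL3L held 65.8% of RPL3L and RPL3 in heart, 83% in psoas and 89.1% in longissimus, and 0.0936% to 5.67% elsewhere. RPL3 itself was lower in the striated tissues, at 69.9, 43.2 and 32.3 FPKM, than in each of the 6 others, where it stood at 74.1 to 302.

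The remaining pairs with a member did not split this way. PYGM held 17.5% of PYGM and PYGB in heart, since PYGB, the brain-type phosphorylase, was at 177 FPKM there and at 0.729 and 0.352 in psoas and longissimus. In adipose tissue PYGM held 74.3%, at 2.52 FPKM against 0.869 for PYGB. SLC25A4 held 97.6% to 99.1% of SLC25A4 and SLC25A5 in the striated tissues and 59.9% in liver. JPH2 held 81.1% of JPH2 and JPH1 in heart, 62.3% in psoas and 39.2% in longissimus, where JPH1 stood at 9.71, 26.8 and 51.7 FPKM in that order. Outside striated muscle the share of JPH2 ran from 32.7% in lung to 91.0% in spleen, at JPH2 levels of at most 3.64 FPKM.

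**Figure D5:**
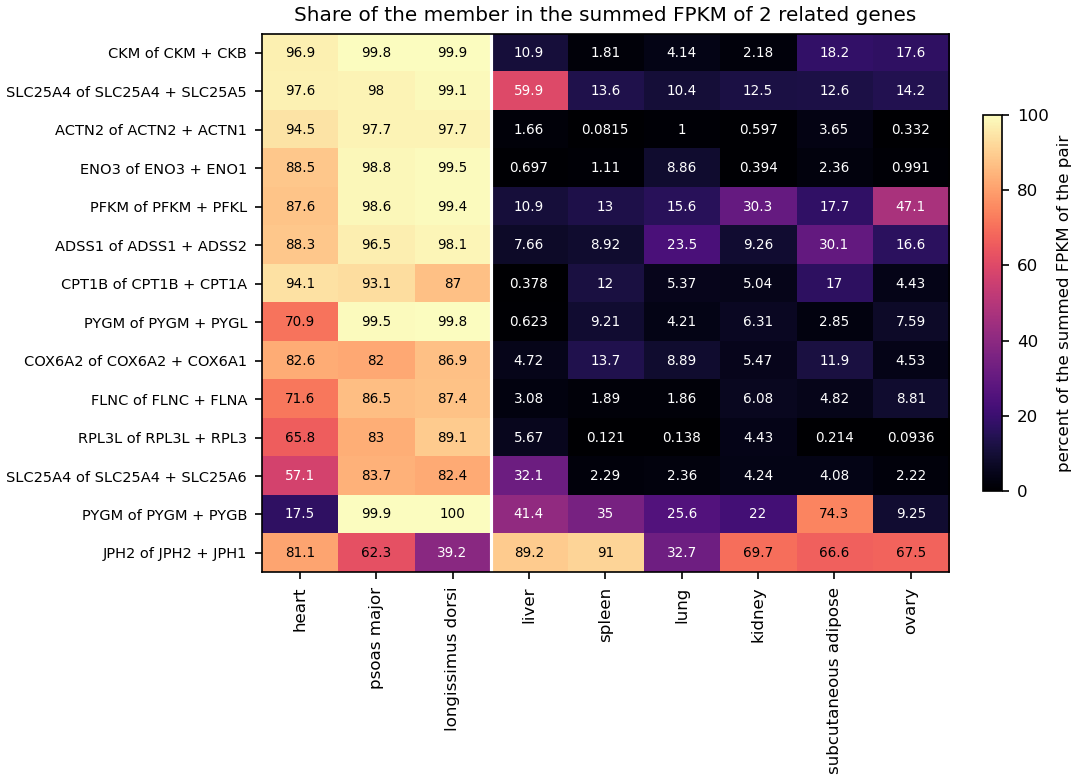
Each cell gives, in percent, the share of the member in the summed FPKM of the member and 1 related gene, by tissue. In 11 of the 14 rows the shares are over 50% left of the white line and under 50% right of it; the exceptions are PYGM with PYGB, JPH2 with JPH1, and SLC25A4 with SLC25A5.

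Traces in other tissues were counted by the tissue where they were highest. The same counts over the 4060 genes are not given here, so no trait of the members is read from them. In 40 members every other tissue was under 1 FPKM, and the libraries differ in depth. The highest of the 6 other tissues was adipose tissue for 29 members, ovary for 26, spleen for 19, lung for 12, kidney for 10 and liver for 4. Of the 29, 13 reached 1 FPKM in adipose tissue. Of the 11 matched fast fibre genes, 7 were likewise highest in adipose tissue among the 6, and the list summed to 34.8 FPKM there, against 2.97 to 12.4 in the other 5 and 26252 and 41715 in psoas and longissimus. MYL11, at 13.3 in adipose tissue, and ACTA1, at 16.4, led them. The part of muscle tissue in the adipose values was not tested. At 1 FPKM or more in all 6 other tissues were 16 members, among them GAPDH, ALDOA, TPM1, YBX3, CRYAB and DES, and 15 members reached 10 FPKM in at least 1.

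The pooled library was left out of the rule. Its label lists heart and muscle, so it is not an independent tissue. In it 67 members reached 5 FPKM, against 93.9% of the 4060 genes, and 97 reached 1. A member's pool level was 10.6% of its mean over the 3 striated libraries at the median, and 95 members were higher in the pool than in any of the 6 other tissues. No share over the 4060 genes is given for the counts of 97 and 95, and nothing is read from them. CAMK2A and CAMK2B stood apart at 48.6% and 45.0%, with 37.2 and 7.33 FPKM in the pool. The list of Schwann cell and nerve genes summed to 353 FPKM in the pool, against 18.7 to 71.8 in the 9 tissues, and its part in the kinase values was not tested.

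At the limit of the rule, the last genes inside were CRYAB, FSD2, TRIM55, YBX3 and HACD1, with folds of 5.26, 5.15, 5.04, 5.02 and 5.0 on FPKM + 1. The first outside were MLIP (4.87), NRAP (4.81), the unnamed model ENSSSCG00000026049 (4.52), SLC25A12 (4.51) and KLHL17 (4.49). NRAP, an anchoring protein of forming myofibrils, was at 134 in heart, 130.4 in psoas and 67.7 in longissimus FPKM with 13.3 in liver.

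The members lie at 92 distinct loci, since 11 of the 12 unnamed models fall inside a named RefSeq gene and several share it. Chromosome 6 held 11 members, chromosome 14 held 9, and the others 1 to 8. Few were close neighbours. LMOD2 and ASB15 lay 13.1 kb apart on chromosome 18, LRRC2 and MYL3 206 kb apart on chromosome 13, and FITM1 and MYH6 482 kb apart on chromosome 7. The models of 42 members overlap a named gene that is not their own by name, such as SPAG7 with ENO3, HSPB2 with CRYAB, PPP4C with ALDOA and TRPM4 with HRC, and the value of such a member can include reads of that gene.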

How the data were processed

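RNA was measured in 10 libraries, 1 per tissue and 1 pool. The deposited table gives 1 value per gene and library, read here as FPKM; the header does not name the unit, which was inferred from non-integer values and library sums, so a related unit cannot be told apart. The submitters' processing notes name the aligner TopHat2 (2.1.0), the assembler StringTie (1.2.2) and, as genome, Sscrofa11.1. For the annotation release, strandedness and filters, the sources used here give nothing.

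Values were compared as log2(FPKM + 1) with the rule stated in the report, on all 25880 genes. Names came from Ensembl identifiers (14857 genes) or from the RefSeq gene of Sscrofa11.1 that overlapped best both ways by at least 0.5 of the longer gene (1714 genes, and 1863 with only a LOC number). Of the members, 79 were named by identifier, 9 by overlap and 12 had no name. Of the symbols on 25 gene lists, 30 were not matched. With 1 library per tissue no test was run. A 2-fold difference (1 on the log2 scale) was counted between striated tissues only where it held for each comparison named. Roles were assigned after membership was known. Any member could be named, and values in every tissue were taken for list members, the 10 highest, the 10 with the widest gap, the 5 most uneven each way and the 5 most even. The members, lists and alternatives were chosen with earlier results of these data known. Values of 2 genes are not reported here, although they count in the totals. The rule was tested on simulated data. Alternatives varied the pseudocount, scaling, level, gap, difference, tissues used and overlapping models. The scripts ran under Python 3.11.15, using pandas 2.3.3 and numpy 2.4.6 for the values, scipy 1.17.1 for correlations, and matplotlib 3.10.9 for plots.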

Additional observations from a re-analysis of the deposited data

How the results depend on the processing

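The set numbered 93 to 138 genes under the 3 other scalings, which kept 92, 100 and 98 of the 100 members (91 under all 3). A pseudocount of 5 left 61 members (14 on the muscle side and 7 apart between the muscles). A 10-fold gap left 62 (13 and 7). Without models that overlap another named gene 45 remained, with 8 on the heart side, 8 on the muscle side and 5 apart between the muscles. That setting also drops 13 members whose overlapping names are only their own locus or a LOC number, and STYXL2, whose overlapping name is an older name of the same gene. A difference of 2 on the log2 scale left 8 on the heart side, 11 on the muscle side and 1 apart between the muscles. Without heart in the rule the set held 197. The median psoas minus longissimus difference changed sign, to -0.14 under median-of-ratios scaling and to -0.18 when centred on all genes at the level. The scalings gave 13 members on the heart side each time and 18 to 33 on the muscle side, while the median heart minus muscle difference of all genes at the level ran from -0.07 to 0.38. Leaving out any 1 other tissue gave 104 to 108 genes, and leaving out adipose tissue and ovary, chosen after seeing the data, gave 112. Counted once per locus there were 92. No member's gap changed sign under the pseudocounts and scalings. Each was chosen for a gap of at least 5-fold, so this was nearly fixed in advance. Both pseudocounts and the 3 scalings together kept 59 of the 100 members, and 18 were kept in every alternative. No paired analysis was possible because each group has 1 library. Shares of promoters with a motif were planned and not run. Levels near 0 in libraries of unequal depth are uncertain, and depth is known only within a factor of 2.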

Other observations

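Some gene models that share a locus kept similar ratios across the striated tissues and others did not. The model on the opposite strand inside CKM stood at 2.75 to 3.08 times CKM. The model inside MYH7 stood at 0.278 to 0.304 of the MYH6 model, and the other model inside MYH6 at 0.111 to 0.126 of it. Both are likewise listed on the strand opposite to the MYH6 model. The larger LDB3 model was 5.10, 5.62 and 5.35 times the smaller one in heart, psoas and longissimus. The short ANK1 model was 7.62, 10.6 and 10.8 times the longer one in that order. The titin models did not keep such a ratio, since the one at 84227979 was 1225 FPKM in psoas and 242 in longissimus while another was 28.9 and 32.2.

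Genes that met all conditions but 1 tissue were described by a few examples, each short of the 5-fold gap because of a single other tissue. ITGA7, the laminin receptor subunit of muscle, was at 63.5 FPKM in heart, 50.8 in psoas and 44.0 in longissimus, but at 138 in adipose tissue and at most at 4.42 in the remaining 5. The glucose transporter SLC2A4 was at 29.7, 39.4 and 20.5 with 14.3 in adipose tissue and at most 1.14 in the remaining 5. ASB11 was at 36.6, 19.4 and 21.6 with 17.6 in ovary. BVES, a popeye domain membrane protein, was at 25.7, 12.1 and 9.81 with 2.05 in kidney. HSPB8 was at 43.8, 58.9 and 32.4 with 8.97 in liver. These were picked from the genes gained when 1 tissue is left out, after their values were seen.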
